A study of Mus musculus with 18 samples.

Results

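Cholesterol is built from acetyl-CoA by the mevalonate pathway, which makes isoprenoid units, and by the sterol pathway, which joins them into squalene and closes and trims the ring. The transcription factor SREBP2 switches on these enzymes together when sterols in the endoplasmic reticulum run low, and INSIG proteins hold its escort SCAP in place when sterols are plentiful. Dividing cells need cholesterol for new membrane, and in the nervous system it is made locally, largely by glia once the tissue matures. The genes described here are 6 enzymes of this route and its regulator: Hmgcs1 makes HMG-CoA, Idi1 isomerizes isopentenyl pyrophosphate, Fdps makes farnesyl pyrophosphate, Sqle oxidizes squalene, Lss closes the ring to lanosterol, Dhcr7 carries out a late reduction to cholesterol, and Insig1 restrains SREBP2. None of the 7 takes up cholesterol from outside the cell, so uptake was read from a separate list of genes. Members were the probe sets whose only gene symbol is one of these 7 names, which gave 15 of the 45037 probe sets tested and 7 of 18193 genes.

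The cells were HBG3 mouse embryonic stem (ES) cells, a line that carries a green fluorescent reporter driven by the motor neuron gene Hb9, differentiated to motor neurons. The 18 arrays held ES cells at day 0 (3 arrays, medium with fetal bovine serum and LIF, feeders for expansion and gelatin for experiments), embryoid bodies at day 2 (4 arrays, aggregated in ANDFK medium with Knockout-SR and without LIF), day 2 embryoid bodies given retinoic acid (RA) for 8 h (2 arrays), and cells at day 3, day 4 and day 7 (3 arrays each) after RA and a hedgehog agonist were added at day 2. Whether the 8 h cultures also held the agonist is not settled by the labels, and they were set against day 2 cultures rather than against untreated cells of the same hour. All arrays came from whole cultures of 1 line, and from bulk RNA a smaller number of cells of a type cannot be told apart from less RNA per cell.

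Values are log2 signals after GCRMA, where 1 unit is a 2-fold difference, and 55.2% to 56.9% of probe sets on each array lay under 4, taken here as background. Array pairs correlated at 0.861 to 0.995 over all probe sets, with 0 identical pairs. Signals of each marker list were summed on the linear scale and are given as log2, so the brightest marker weighs most. For 7 pluripotency markers the log2 of the summed signal was 11.47 to 12.16 at day 7 and 14.88 to 15.10 at day 0. Sox2 alone measured 11.53, 11.39 and 12.12 at day 7, where Pou5f1, Zfp42 and Tdgf1 were under background on every array. For 7 motor neuron markers the value was 12.26 to 12.36 at day 7, although Chat, the acetylcholine-synthesizing enzyme, stayed under background on every day 7 array. All 8 neuron markers were called higher at day 7 than at day 4. The log2 of the summed signal of the neuron markers did not follow the order of days: it was 12.40 to 12.69 at day 0, 11.34 to 12.14 at day 2, 11.29 to 11.63 after 8 h of RA, 9.89 to 10.20 at day 3, 12.35 to 12.71 at day 4 and 15.64 to 15.82 at day 7. At day 0 the largest part of the sum was Stmn2 (12.38, 12.23 and 11.75), and Nefm and Dcx were under background on every array. Tubb3, Nefl and Stmn2 were called lower at day 3 than at day 2. All members but a second Fdps probe set, 1438150_at, which sat at 2.24 on every array, were detected. A gene counted as called if limma gave at least 1 of its probe sets an adjusted p below 0.01 together with a difference of 2-fold or more.

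Promoter windows of the members were searched for matches to short motifs. RefSeq windows of 300 bases, from 250 before to 50 after a transcription start (GRCm38.p6, all on the plus strand), were at hand for 5 members. Those of Hmgcs1 (chr13:119690101-119690400), Idi1 (chr13:8885356-8885655), Lss (chr10:76531355-76531654), Dhcr7 (chr7:143829964-143830263) and Insig1 (chr5:28071162-28071461) are shown, 5′ to 3′, as the members that had a window. Capitals mark matches, on either strand, to CACNCCAC, the core of the sterol regulatory element that SREBP proteins bind, and to CCAAT, the box bound by NF-Y.
Hmgcs1: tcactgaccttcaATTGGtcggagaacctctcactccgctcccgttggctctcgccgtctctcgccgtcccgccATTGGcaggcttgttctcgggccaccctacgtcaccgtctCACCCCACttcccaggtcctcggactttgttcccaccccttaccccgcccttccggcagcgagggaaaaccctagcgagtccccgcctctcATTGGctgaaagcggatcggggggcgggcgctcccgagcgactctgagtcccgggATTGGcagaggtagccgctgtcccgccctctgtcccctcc
Idi1: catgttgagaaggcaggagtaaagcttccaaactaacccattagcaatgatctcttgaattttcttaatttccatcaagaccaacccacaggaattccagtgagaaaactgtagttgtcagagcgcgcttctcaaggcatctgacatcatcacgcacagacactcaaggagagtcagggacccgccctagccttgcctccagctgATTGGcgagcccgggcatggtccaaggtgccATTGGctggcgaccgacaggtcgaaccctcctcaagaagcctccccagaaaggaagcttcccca
Lss: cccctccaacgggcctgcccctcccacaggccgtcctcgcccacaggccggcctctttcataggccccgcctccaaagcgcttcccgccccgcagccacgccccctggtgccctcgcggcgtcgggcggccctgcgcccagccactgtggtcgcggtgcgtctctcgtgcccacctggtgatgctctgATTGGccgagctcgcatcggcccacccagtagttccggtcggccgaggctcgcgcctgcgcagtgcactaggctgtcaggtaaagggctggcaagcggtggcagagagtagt
Dhcr7: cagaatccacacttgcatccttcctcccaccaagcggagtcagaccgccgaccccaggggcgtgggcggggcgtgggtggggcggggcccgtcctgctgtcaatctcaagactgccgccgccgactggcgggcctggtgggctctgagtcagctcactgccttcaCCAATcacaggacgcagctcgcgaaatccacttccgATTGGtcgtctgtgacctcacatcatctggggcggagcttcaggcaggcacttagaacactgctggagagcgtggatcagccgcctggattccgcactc
Insig1: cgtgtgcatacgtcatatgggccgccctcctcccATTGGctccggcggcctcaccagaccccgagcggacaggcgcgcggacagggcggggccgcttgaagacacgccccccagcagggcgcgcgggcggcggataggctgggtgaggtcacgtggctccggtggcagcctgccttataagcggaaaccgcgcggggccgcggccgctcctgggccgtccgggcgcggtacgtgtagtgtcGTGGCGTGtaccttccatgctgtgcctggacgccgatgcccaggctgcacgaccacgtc
The longer element TCACNCCAC was found only in the Hmgcs1 window, at position -137 from the start, and occurs in 1.24% of 32851 RefSeq promoter windows. Its core CACNCCAC lies inside that match and was also present in Insig1, on the minus strand at -9, against 6.24% of all windows. Dhcr7 has 3 windows, and the one shown was chosen because it holds CCAAT, which the other 2 lack. Over all 7 windows of these genes, CCAAT was present in 5, with 4 matches in Hmgcs1, against 37.4% of all windows, and GGGCGG, the Sp1 box, in 6, against 35.7%. These matches describe letters and were not tested for binding.

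Of the 6 comparisons, day 2 against day 0 had the largest median difference of the 7 members, though not the largest difference of Hmgcs1 or Insig1. On their brightest probe sets all 7 members had a higher mean in day 2 embryoid bodies than in ES cells, against 54.1% of all genes. Sqle, Lss and Idi1 were called higher, by 3.48-fold, 3.69-fold and 3.15-fold. The median log2 fold change of the 7 brightest probe sets was 1.66, against 0.00 over all genes, and 2.02% of genes were called higher in this comparison and 2.46% lower. In 5 members (Idi1, Fdps, Sqle, Lss and Dhcr7) every day 2 array lay above every day 0 array, which held for 7.20% of genes. Of 10 genes of fatty acid synthesis, 2 were called higher, Fads2 and Scd2, with a median of 0.71 and 6 at an unadjusted p under 0.05.

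Sqle, the squalene oxidase, had log2 signals of 10.90, 10.77, 11.40 and 11.23 in the 4 day 2 cultures, against 9.91, 8.37 and 9.54 in the 3 ES cell cultures. The ranges did not overlap, and ES replicate 2 was the lowest of all 18 arrays. The log2 fold change was 1.80 ± 0.31 (SE, limma adjusted p = 0.0038). Lss, the lanosterol synthase, is read by 3 probe sets, and on the brightest, 1420013_s_at, its log2 signals were 10.32, 10.13, 10.79 and 10.51 at day 2, against 9.13, 7.69 and 8.83 at day 0. All 3 Lss probe sets were called, with log2 fold changes of 1.89, 1.99 and 1.97 and limma adjusted p of 0.0011, 0.0027 and 0.0048. Idi1, on probe set 1451122_at, measured 11.93, 12.09, 12.40 and 12.48 at day 2, against 11.14, 9.65 and 10.92 at day 0. Its log2 fold change was 1.66 ± 0.32 (SE, adjusted p = 0.0075), and that of its second probe set, 1423804_a_at, was 1.20 (adjusted p = 0.072). As with Sqle, ES replicate 2 was the lowest array for Idi1 and for Lss.

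The other 4 members did not pass both thresholds. Fdps, the farnesyl pyrophosphate synthase, had the largest difference of the 7, 2.53 ± 0.64 (SE, adjusted p = 0.039), with 11.12, 10.68, 11.60 and 11.84 at day 2 and 9.62, 8.48 and 8.23 at day 0. Dhcr7 measured 12.22, 11.89, 12.48 and 12.19 at day 2, against 11.88, 10.67 and 11.34 at day 0, so that the ranges all but touched (difference 0.90, adjusted p = 0.031). Hmgcs1, the HMG-CoA synthase, measured 14.07, 14.17, 14.02 and 13.60 at day 2, against 13.76, 13.28 and 13.34 at day 0, on its brightest probe set, with overlapping ranges and a difference of 0.51 (adjusted p = 0.083). Its probe set 1433446_at differed by 1.47 (adjusted p = 0.020). Insig1 measured 12.81, 13.06, 12.81 and 12.32 at day 2, against 12.73, 12.08 and 12.31 at day 0, with overlapping ranges. It had the smallest difference, 0.38 (adjusted p = 0.42), with a 95% interval of -0.05 to 0.80.

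**Figure D1:**
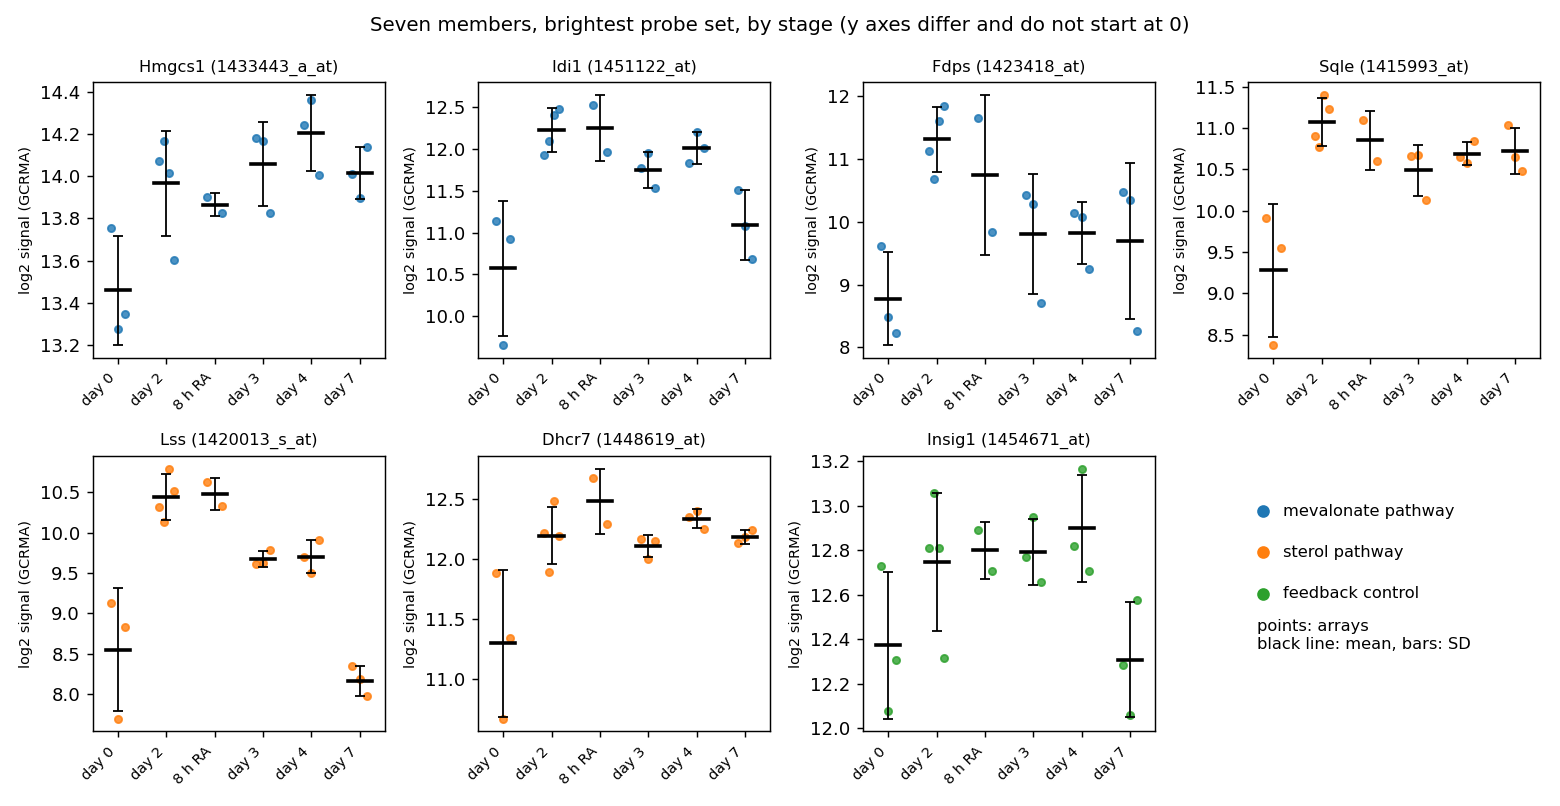
Log2 signal (GCRMA, y axes differing between panels) of the brightest probe set of each member against stage, with points for the 18 arrays, black lines for means and bars for SD. Day 0 holds the lowest mean in 5 of the 7 members, while Lss and Insig1 are lowest at day 7.

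The calls rested on few arrays. Leaving out single arrays gave 1 to 5 called members. Without day 2 replicate 3 or replicate 4 only Lss was called (Sqle adjusted p = 0.014 and 0.013), and Idi1 lost its call without ES replicate 2 (adjusted p = 0.015) or without any single day 2 array (adjusted p = 0.013 to 0.024). Without ES replicate 1, Dhcr7 and Hmgcs1 were called as well. With only the arrays of these stages fitted, or with day 2 replicates 1 and 2 alone, 0 members were called by limma. In the separate fit of all arrays, 6 members had an unadjusted limma p under 0.05 on 1 or more probe sets. The share of all genes at that level was not counted. Medium, serum, LIF and aggregation all changed together with day, so their parts cannot be told apart. The log2 of the summed signal of 7 feeder fibroblast markers was 7.19 to 7.60 at day 2. It was 9.12, 10.30 and 11.84 in ES replicates 1, 2 and 3, and Col1a1 was called lower at day 2. Lum and Postn were under background on every array of both stages. ES replicate 2, the lowest for the mean of the 7 members (10.03, with 11.17 and 10.64 in replicates 1 and 3), was the middle array for feeder markers. Day 2 replicate 3 stood apart in another list, that of 9 extraembryonic endoderm markers. The log2 of their summed signal was 7.83, against 5.68 to 5.97 on the other day 2 arrays and 5.74 to 6.22 at day 0. Only Ttr and Cubn rose above background on it, and the other 7 were under background on every day 2 array. Whether feeder or endoderm cells were present, and their parts in the result, was not tested.

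Of 13 further enzymes of the mevalonate, isoprenoid and sterol steps, 4 were called higher at day 2 than at day 0 and 0 lower, and the median was 1.50. The difference was positive in 12 of them, against 54.1% of all genes. The exception was Ggps1, which makes geranylgeranyl pyrophosphate on a side branch off the route to sterols. The called genes were Cyp51, lanosterol demethylase (1.50 ± 0.15 SE, limma adjusted p = 4.6e-05), Msmo1, the methylsterol oxidase (1.82), Hsd17b7, a sterol ketone reductase (1.73), and Sc5d, the sterol desaturase (2.39 ± 0.35 SE). Cyp51 had log2 signals of 11.01, 11.13, 11.53 and 11.39 at day 2, against 10.12, 9.59 and 9.59 at day 0, with no overlap. The earlier mevalonate steps Mvk, Pmvk and Mvd differed by 1.84, 1.53 and 1.48, with limma adjusted p of 0.020, 0.015 and 0.016, and 0 of the 4 genes of that list were called (3 at an unadjusted p under 0.05). Fdft1, the squalene synthase between Fdps and Sqle, differed by 0.69 (adjusted p = 0.13).

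Among 9 genes of uptake and lysosomal release, 2 were called higher at day 2, Stard4, a cytosolic sterol carrier (2.24 ± 0.41 SE, limma adjusted p = 0.0054), and the lipoprotein receptor Lrp8 through a probe set other than its brightest, and the median was 0.09, with 5 at an unadjusted p under 0.05. Of 7 genes of SREBP control 0 were called by limma, with 3 at an unadjusted p under 0.05. Srebf2, which encodes SREBP2, differed by 0.71 (adjusted p = 0.17), Srebf1 by 0.69 (adjusted p = 0.48), Scap by 0.49 (adjusted p = 0.68) and Insig2 by -0.40 (adjusted p = 0.61). Among 9 genes of efflux, storage and oxysterols 0 were called by limma (3 at an unadjusted p under 0.05), and Abca1, the exporter that sterol-loaded cells use, was lower at day 2 by the largest amount of the list. Its log2 signals were 6.15, 5.46, 4.32 and 3.78 at day 2, against 8.23, 9.07 and 8.33 at day 0, a difference of -3.62 that missed the threshold (limma adjusted p = 0.013). Of 7 genes of the other isoprenoid branches, 0 were called by limma (1 at an unadjusted p under 0.05).

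**Figure D2:**
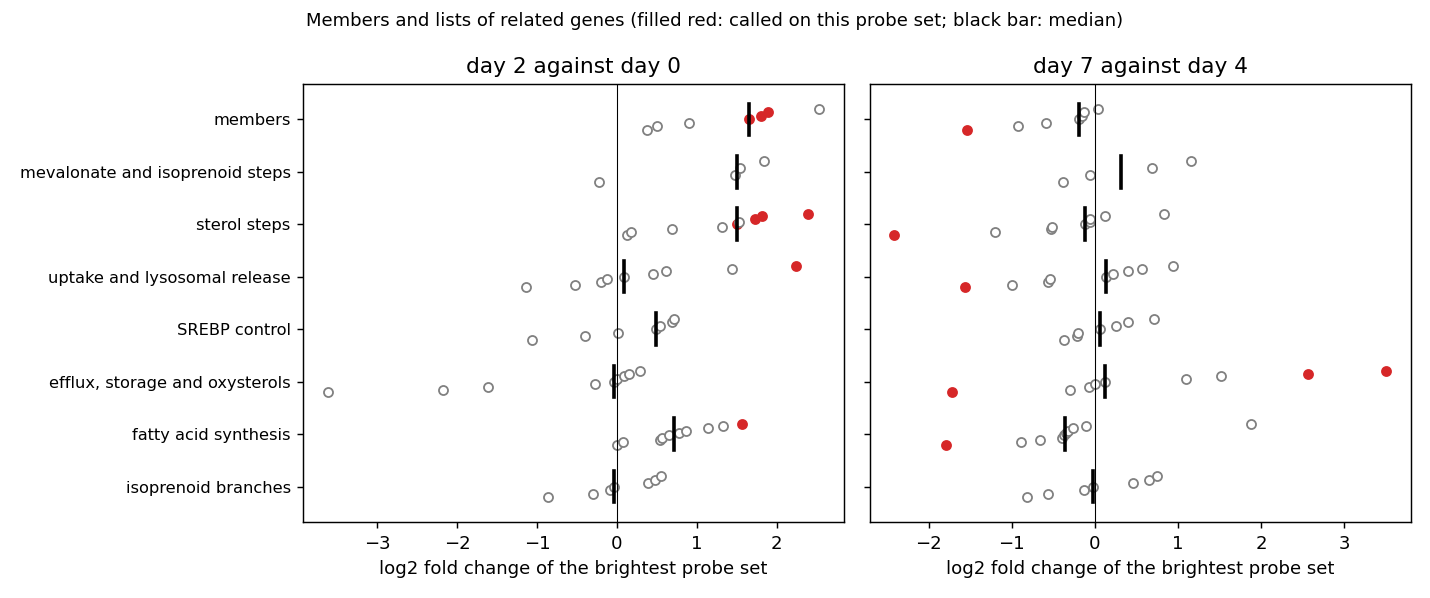
Log2 fold change of the brightest probe set (x axis) of each member and each gene of the 7 related lists (rows), day 2 against day 0 on the left and day 7 against day 4 on the right, with called probe sets filled red and medians as black bars. At day 2 the members, mevalonate steps and sterol steps have medians of 1.66, 1.51 and 1.50, and at day 7 the member median is -0.19.

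No member was called after 8 h of RA. In this comparison 0.363% of genes were called higher and 0.0715% lower, and 0 of the 7 members were called by limma, with 0 at an unadjusted p under 0.05 on any probe set. Over the 14 detected probe sets the differences ran from -0.57 to 0.29, with 95% intervals reaching from -2.15 to 1.05. Sqle measured 11.10 and 10.60 after RA, against 10.77 to 11.40 at day 2. Lss measured 10.62 and 10.33, both inside its day 2 range. Fdps was 11.64 in one RA culture and 9.84 in the other, which is the widest spread of any member at this stage. The RA culture labelled replicate 1 had 7.83 for the summed endoderm markers and replicate 3 had 5.92, and without replicate 1 the count of called members was also 0. Of the 9 endoderm markers, 6 (Afp, Sox17, Gata4, Gata6, Apob and Amn) were under background on both RA arrays. Dhcr7 had the largest positive difference, 0.29, with a 95% interval of -0.25 to 0.82. Of 55 genes in the related lists, 0 were called by limma, and 5 had an unadjusted p under 0.05.

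**Figure D3:**
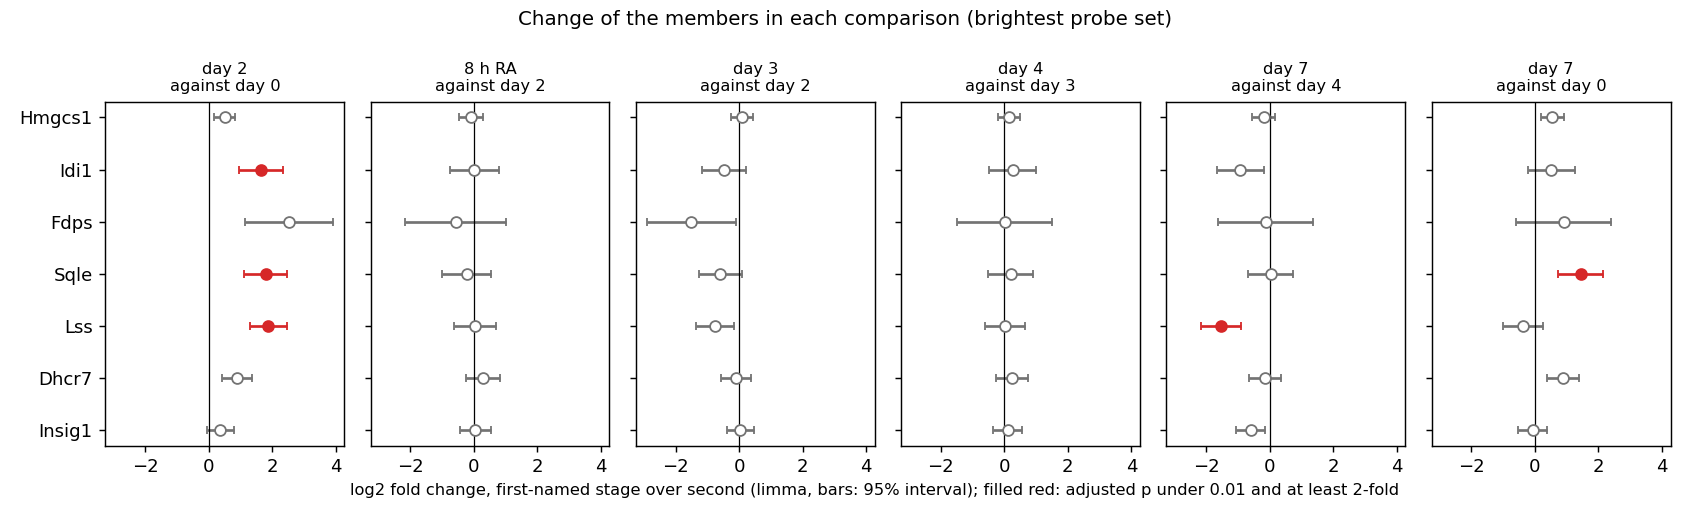
Log2 fold change of the brightest probe set of each member (rows) in the 6 comparisons (panels), first-named stage over second, with 95% intervals from limma. Only Idi1, Sqle and Lss at day 2 against day 0, Lss at day 7 against day 4 and Sqle at day 7 against day 0 are filled red as called on this probe set.

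From day 2 to day 4 no member passed the test. At day 3 against day 2, where 3.91% of genes were called higher and 3.80% lower, 0 members were called by limma, and 2, Fdps and Lss, had an unadjusted p under 0.05. The median of the 7 differences was -0.48. Fdps measured 10.42, 10.28 and 8.71 at day 3, against 11.12, 10.68, 11.60 and 11.84 at day 2 (difference -1.51 ± 0.64 SE, limma adjusted p = 0.23). Lss measured 9.62, 9.62 and 9.79 at day 3, below all 4 day 2 arrays (difference -0.76 ± 0.27 SE, adjusted p = 0.13). At day 4 against day 3, with 0.627% of genes called higher and 0.792% lower, 0 members were called by limma (1, Lss, had an unadjusted p under 0.05), and the brightest probe sets differed by 0.02 to 0.26. Lss probe set 1426913_at had 9.26, 9.20 and 8.70 at day 4, against 8.16, 7.98 and 7.79 at day 3, without overlap (1.08 ± 0.38 SE, adjusted p = 0.34). Outside the members, Ch25h, which makes an oxysterol from cholesterol, was called higher at day 3 and lower at day 4, with means of 2.28, 5.93 and 2.57 at day 2, day 3 and day 4.

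At day 7 against day 4, 2 members were called lower, Lss and Idi1, and 0 higher. In this comparison 10.9% of genes were called higher and 8.17% lower. In 4 members (Idi1, Lss, Dhcr7 and Insig1) every day 7 array lay below every day 4 array, a pattern held by 17.0% of genes, and the median difference was -0.19. Lss on 1420013_s_at measured 8.34, 8.18 and 7.98 at day 7, against 9.70, 9.50 and 9.91 at day 4, which is 2.90-fold lower (log2 -1.54 ± 0.29 SE, limma adjusted p = 0.0019). Idi1 on 1423804_a_at measured 9.998, 9.45 and 9.25 at day 7, against 11.25, 11.80 and 10.75 at day 4, which is 3.25-fold lower (log2 -1.70 ± 0.37 SE, adjusted p = 0.0052). On its brighter probe set 1451122_at the difference was -0.92 (adjusted p = 0.081), and the call on 1423804_a_at was lost without day 4 replicate 1 or 2 or day 7 replicate 4 or 5. Both calls were made on probe sets whose suffix marks probes that can match several transcripts, and without such probe sets 0 members were called by limma.

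Insig1 measured 12.28, 12.06 and 12.58 at day 7, against 12.82, 13.17 and 12.71 at day 4, a difference of -0.59 (adjusted p = 0.069). Dhcr7 differed by -0.15, with a 95% interval of -0.66 to 0.35. Sqle measured 11.03, 10.65 and 10.48 in day 7 cells and 10.64, 10.57 and 10.84 in day 4 cells, with overlapping ranges and a difference of 0.03 (95% interval -0.69 to 0.75). Over the members the differences ran from -1.54 for Lss to 0.03 for Sqle on the brightest probe sets. A test between members was not run. Among the 13 further enzymes, 2 were called lower, Lbr, a sterol reductase that also anchors chromatin at the nuclear envelope (-2.41 ± 0.17 SE, limma adjusted p = 3.3e-07), and Msmo1 through a probe set other than its brightest, and 0 higher. Cyp51 and Fdft1 differed by -0.06 and 0.13.

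The Lss probe sets disagreed at this step. The third probe set, 1426913_at, measured 9.53, 8.70 and 9.15 at day 7, against 9.26, 9.20 and 8.70 at day 4, a difference of 0.08 (limma adjusted p = 1.0), while 1420014_at fell by 1.38 (adjusted p = 0.013, short of the threshold). Within each array, 1426913_at minus 1420013_s_at averaged 0.96 ± 0.39 at day 7 and -0.65 ± 0.49 at day 4 (SD, n = 3 each), a difference of 1.61 with no overlap. An exact two-sided permutation test gave p = 0.1, the smallest that 3 against 3 arrays allow. The same within-array value was -2.07 ± 0.37 at day 2 (SD, n = 4) and -2.16 ± 0.52 at day 0 (SD, n = 3), a difference of 0.08 (exact permutation p = 0.63). It averaged -0.65 ± 0.49 at day 4 and -1.70 ± 0.28 at day 3 (SD, n = 3 each), a difference of 1.05 (exact permutation p = 0.1). Between day 7 and day 0 the difference was 3.12 (exact permutation p = 0.1). In these comparisons of 3 against 3 arrays, too, the test could give no p below 0.1, so it cannot grade the differences. Where these probes lie on the transcript was not analysed here.

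**Figure D4:**
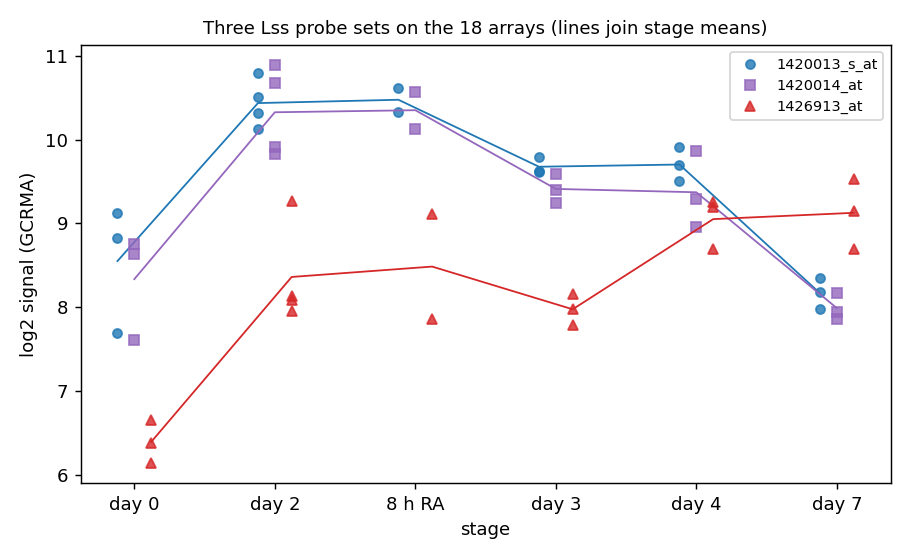
Log2 signal (GCRMA) of the Lss probe sets 1420013_s_at, 1420014_at and 1426913_at on the 18 arrays against stage, with lines joining stage means. The first 2 have their lowest means at day 7 (8.17 and 7.99), where 1426913_at has its highest (9.13).

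Markers of other cell types and of division moved at the same step. All 8 measured proliferation markers were called lower at day 7. The log2 of their summed signal was 13.06 to 13.15 at day 7 and 14.61 to 15.14 at day 4. Of 10 glial markers, 6 were called higher (Mbp, Aqp4, Aldh1l1, Slc1a3, Fabp7 and Sox10), while Mag, Mog and Gfap were under background on every day 7 array. The log2 of the summed signal of the 10 was 13.92 to 14.37 at day 7 and 10.56 to 10.71 at day 4. The part of these shifts in the members' values was not tested. Among uptake genes, Scarb1, the lipoprotein receptor, was called lower at day 7 (-1.56 ± 0.35 SE, limma adjusted p = 0.0060), Stard4 lower and Lrp8 higher, the last 2 through probe sets other than the brightest. The exporters Abcg1 and Abcg4 were called higher, Abcg1 at 7.47 in day 7 cells and 4.91 in day 4 cells and Abcg4 at 5.98 in day 7 cells and 2.48, under background, in day 4 cells. Cyp27a1, a sterol hydroxylase, was called lower, and so were Scd1, a fatty acid desaturase (-1.79 ± 0.26 SE), and Elovl6. SREBP control had 0 of 7 genes called by limma and 1 at an unadjusted p under 0.05, with Srebf2 at 0.40 (adjusted p = 0.42).

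Over the whole course, day 7 against day 0, 3 members were called higher and 0 lower, where 17.0% of genes were called higher and 16.4% lower. Sqle was 2.72-fold higher (log2 1.44 ± 0.33 SE, limma adjusted p = 0.0042). Hmgcs1 was called through 1433446_at, with 12.76, 12.47 and 12.66 at day 7 and 11.23, 9.56 and 11.09 at day 0 (2.00 ± 0.35 SE, adjusted p = 0.0006), while its brightest probe set differed by 0.56 (adjusted p = 0.019). Lss was called through 1426913_at (2.73 ± 0.37 SE, adjusted p = 0.0001), whereas 1420013_s_at differed by -0.38 (adjusted p = 0.42). Dhcr7 missed both thresholds at 0.89 (adjusted p = 0.0102), and Insig1 differed by -0.07. The Sqle call was lost without ES replicate 2 or without day 7 replicate 3 or 4, and Dhcr7 was called without ES replicate 1. Of the 13 further enzymes, 7 were called higher, Mvk, Pmvk, Cyp51, Tm7sf2, Nsdhl, Hsd17b7 and Sc5d. Ggps1, which lies on the side branch, and Lbr were the 2 called lower. The largest of the rises among brightest probe sets was that of Tm7sf2, a sterol reductase (2.14 ± 0.54 SE). A test of any difference among the 6 stages called 4 members, Hmgcs1, Idi1, Sqle and Lss, against 38.8% of genes.

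Fdps varied within stages along with an RNA control. Its log2 signals at day 7 were 10.47, 10.34 and 8.26, while the Actb control difference described next on the same arrays was 1.06, 0.95 and 2.18. The Affymetrix control for Actb is read at both ends of the transcript, and the 3′ minus 5′ difference rises where RNA is degraded or incompletely copied. Deviations of Fdps from its stage means correlated with deviations of this Actb difference at r = -0.94, and with that of Gapdh at -0.89, over 18 arrays that share hybridization and normalization. For the other 6 members the correlation with Actb lay between -0.47 and 0.27. With the Actb difference as a covariate, an alternative chosen after the data were seen, Fdps was 2.26 ± 0.23 higher at day 2 than at day 0 (SE, limma adjusted p = 1.1e-04) and was called, which made 4 called members, and between day 7 and day 4 it differed by -1.04 (adjusted p = 0.013).

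**Figure D5:**
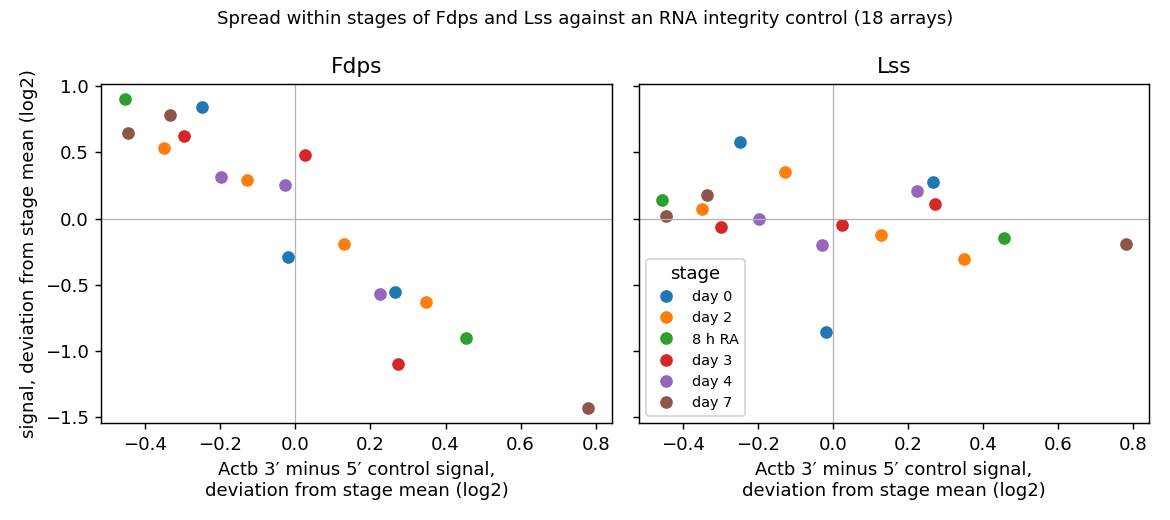
Deviation of the log2 signal of Fdps (left) and Lss (right) from the stage mean against the same deviation of the Actb 3′ minus 5′ control difference (log2), with 1 point for each of the 18 arrays, coloured by stage. Fdps falls along the axis (r = -0.94), whereas Lss shows r = -0.28.

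The members moved together across arrays to differing degrees. Over the 18 arrays, the 21 pairs had Pearson r between 0.28 and 0.89 with a median of 0.64, and r over the 6 stage means had a median of 0.79. Within stages, where stage differences are removed, the median was 0.39, and Idi1 with Sqle (0.93) and Hmgcs1 with Insig1 (0.92) were the closest pairs. The genes most like the mean of the 7 members, among 10559 genes with a mean of at least 4, were Stard4 (r = 0.95), Msmo1 (0.93), Zmynd8 (0.92), Oat (0.91), Brcc3 (0.91), Lsm6 (0.90), Sc5d (0.90), Nt5dc2 (0.89), Hdlbp (0.88) and 3110045C21Rik (0.88). The 7 pathway lists held 49 of the 10559 ranked genes, and 7 of the 100 genes most like the member mean. The 49 had a median r of 0.33, against 0.05 for all ranked genes. These values describe 18 arrays that share 1 protocol of amplification and 1 normalization.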

How the data were processed

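RNA from HBG3 cultures was amplified (NuGen Ovation) and hybridized to Affymetrix mouse arrays by the authors, who state biological triplicates for each time point. The authors deposited 1 log2 signal for each probe set and array, normalized with GCRMA over all arrays together (versions not given in the sources used here). The signals run from 2.24 to 15.6. Of 45101 probe sets, 64 controls were left out, 34945 carry 1 gene symbol, 932 several and 9160 none here. Depth does not apply to arrays, and precision is limited by their number.

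limma 3.58.1 in R 4.3.3 fitted 6 stage means to all 18 arrays (12 residual and 0.515 prior degrees of freedom), with Benjamini-Hochberg adjustment over 45037 probe sets. A gene's value is its probe set with the highest mean, and errors are SDs over arrays or limma standard errors. Counts at an unadjusted p under 0.05 are given without the share of all genes at that level, which was not counted. The scripts were tested on simulated data. Python 3.11.15 drew the figures. Members, 15 companion and marker lists and comparisons were chosen with earlier results of these data known. Named are all members, up to 4 called genes per list and comparison with the largest change, always Srebf2, Srebf1, Scap, Insig2, Fdft1, Cyp51 and Abca1, and the 10 genes most like the member mean. Mvk, Pmvk and Mvd were named after their values were seen. Replicate numbers come from the sample titles. Same-numbered arrays deviated together between day 3 and day 2 (r 0.35 to 0.48) and between day 4 and day 3 (0.42 to 0.75), and not between day 2 and day 0 (-0.20 to 0.21) or RA and day 2 (-0.45 to -0.22). Genes lacking a probe set with a symbol to themselves were not analysed here.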

Additional observations from a re-analysis of the deposited data

Results flagged for a closer look

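Of 14 groups of 4 arrays examined, those of the 14 detected probe sets at day 2, a single array stood apart. For Lss probe set 1426913_at, day 2 replicate 3 measured 9.26 against 7.95 to 8.14 in the other 3 arrays, a gap larger than the Dixon limit at 95%. Chance alone flags about 1 in 20 groups. It was also the highest of the 4 on the other Lss probe sets, at 10.79 and 10.90. On the same array the log2 of the summed signal of 9 extraembryonic endoderm markers was 7.83, with Ttr at 6.70 and Cubn also above background. The other 7 (Afp, Sox17, Gata4, Gata6, Apoa1, Apob and Amn) were under background on every day 2 array. The other day 2 arrays had sums of 5.68 to 5.97. Among the RA arrays, replicate 1 had a sum of 7.83 and Lss probe set 1426913_at at 9.11, and replicate 3 had 5.92 and 7.86. Whether endoderm cells were present, and their part in these values, was not tested.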

How the results depend on the processing

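Of the 3 members called at day 2 against day 0, 0 were called with only the arrays of the 2 compared groups fitted, and 0 with day 2 replicates 1 and 2 only, 1 (Lss) with the replicate block, and 5 at an adjusted p under 0.05; leaving out single arrays gave 1 to 5. Of the 2 called at day 7 against day 4, 1 was called with the 2 groups only, with the brightest probe set only or with probe sets averaged, 0 with suffixed probe sets left out, and 1 to 2 when single arrays were left out. Of the 3 called at day 7 against day 0, 1 was called with the 2 groups only, with the brightest probe set only or with probe sets averaged, and 2 to 4 when single arrays were left out. The count for 8 h of RA stayed at 0 in every alternative run, as did both counts between day 2 and day 4, where the replicate block also changed no call. The replicate block is a shared number only for day 2 against day 0, where the arrays did not deviate together, and day 7 shares 1 number with day 4 and with day 0, so that no paired fit was made there. Of 786 alternative single-gene values, 760 stayed on the same side of the thresholds, 21 lost the call and 5 gained it. Of the 760, 49 that passed in neither fit changed sign, with sizes up to 0.57, and 0 called values turned. The number of arrays, 2 to 4 per stage, limits what can be seen, and with 2 RA arrays the 95% interval of Fdps runs from -2.15 to 1.02.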

Other observations

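Among genes of efflux, Abcg1 was called lower at day 3, with a mean log2 signal of 4.48 at day 3 and 7.86 at day 2 (difference -3.38 ± 0.51 SE, limma adjusted p = 9.0e-04), before the higher level at day 7. Apoe, the lipid carrier, measured 4.03 on each of the 3 day 7 arrays, against a mean of 10.4 ± 0.85 (SD, n = 3) at day 0. That value is the lowest of this probe set on any array and was also read on day 4 replicates 1 and 3, so it was taken as a floor. Cyp46a1, the neuronal cholesterol hydroxylase, was called higher at day 7, with means of 5.72 at day 7 and 3.07 at day 0, where it lay under background. In fatty acid synthesis, Acss2, Fads1, Fads2 and Scd2 were called higher at day 7 than at day 0, with Acss2 at 2.12 ± 0.41 (SE), while Elovl6 was called lower (-1.14 ± 0.23 SE). Mbtps2, a protease that releases SREBP, was the only gene of 7 in SREBP control called in any of the 6 comparisons, lower at day 7 than at day 0 (-1.09 ± 0.27 SE, limma adjusted p = 0.0066).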
